A study of Saccharomyces cerevisiae with 6 samples.

Results

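The M475R allele of ASK10 was compared with wild-type ASK10 in the budding yeast Saccharomyces cerevisiae by RNA-seq, over all genes listed for the libraries of the 2 strains. The strain called WT carried wild-type ASK10, and the strain called M475R carried an ASK10 allele with that substitution. Both were grown in synthetic medium without uracil (Sc-ura) that held 20 g/l glucose, and each is represented by 2 libraries, numbered as replicates 1 and 2. The comparison therefore used 4 of the 6 libraries in the series and 6025 of its 6032 listed genes. The series also holds a strain without ASK10. The labels do not state the time of sampling, the strain background, how the allele was introduced or whether replicates were separate cultures. The identifiers of the genes end in CEN.PK113-7D, a laboratory strain of yeast.

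ASK10, also known as RGC2, encodes a regulator of Fps1, the plasma membrane channel through which yeast releases glycerol. Ask10 binds Fps1 together with its paralog Rgc1, and stress kinases act on both proteins to set how open the channel is. The protein was also described as a component of the RNA polymerase II machinery and as a part of the response to oxidative stress. A substitution at a single residue may leave the ASK10 transcript level as it is, so the transcript of the gene does not by itself report on the allele.

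Depth differed strongly between the libraries. Total expected counts were 102612 and 51576 in WT replicates 1 and 2, and 4155203 and 71228 in M475R replicates 1 and 2. M475R replicate 1 was thus 40.5 times as deep as WT replicate 1 and 58.3 times as deep as M475R replicate 2. A count of 3, taken as the floor of detection, stood for 29.2 and 58.2 CPM (counts per 1000000 of the library total) in WT, 0.722 in M475R replicate 1 and 42.1 in M475R replicate 2. Of the listed genes, 633 had no count in either WT library. The precision of each ratio was set mainly by the WT counts, and the M475R level came almost wholly from replicate 1. The spread between the libraries of a strain did not exceed sampling noise (chi-square of 1.005 per degree of freedom for WT and 1.025 for M475R), so each pair was counted as 1 sample. The edgeR fit nevertheless entered all 4 libraries, with 2 residual degrees of freedom. Its p-values compare these libraries and measure a spread that may be technical, and intervals cover counting error only.

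Of 1912 genes that passed the filter on low counts, 251 were higher and 267 lower in M475R (edgeR quasi-likelihood test, Benjamini-Hochberg adjusted p under 0.05). These calls amount to 27.1% of tested genes in either direction, 13.1% higher and 14% lower. At least 2-fold, 133 were higher and 56 lower, and at least 4-fold 11 were higher and 11 lower. Both M475R libraries lay beyond both WT libraries for 498 of the 518 called genes, and for 58% of all tested genes. The genes called higher took 14.9% and 15.3% of all counts in the WT libraries and 23.9% and 24.3% in the M475R libraries. The genes called lower took 28.7% and 28.3% in WT and 18.2% and 18.4% in M475R.

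What could be called depended on the WT depth. Genes called higher had a median of 20 pooled WT counts, and those called lower a median of 102. Of the 37 tested genes with 1 to 9 pooled WT counts, 34 were called higher and 0 lower, since a gene so low in WT passed the filter only where it was high in M475R. Of the 130 genes with at least 200 pooled WT counts, 17 were higher and 85 lower. For these the test reached ratios as close to 1 as 1.08 and 0.798. Counts of called members in the gene groups described next are read beside these shares, and the summed level of a group over all its listed members, tested or not, is given with them. Without M475R replicate 1 the calls dropped to 70 higher and 100 lower, and without WT replicate 1 to 83 and 94.

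**Figure D1:**
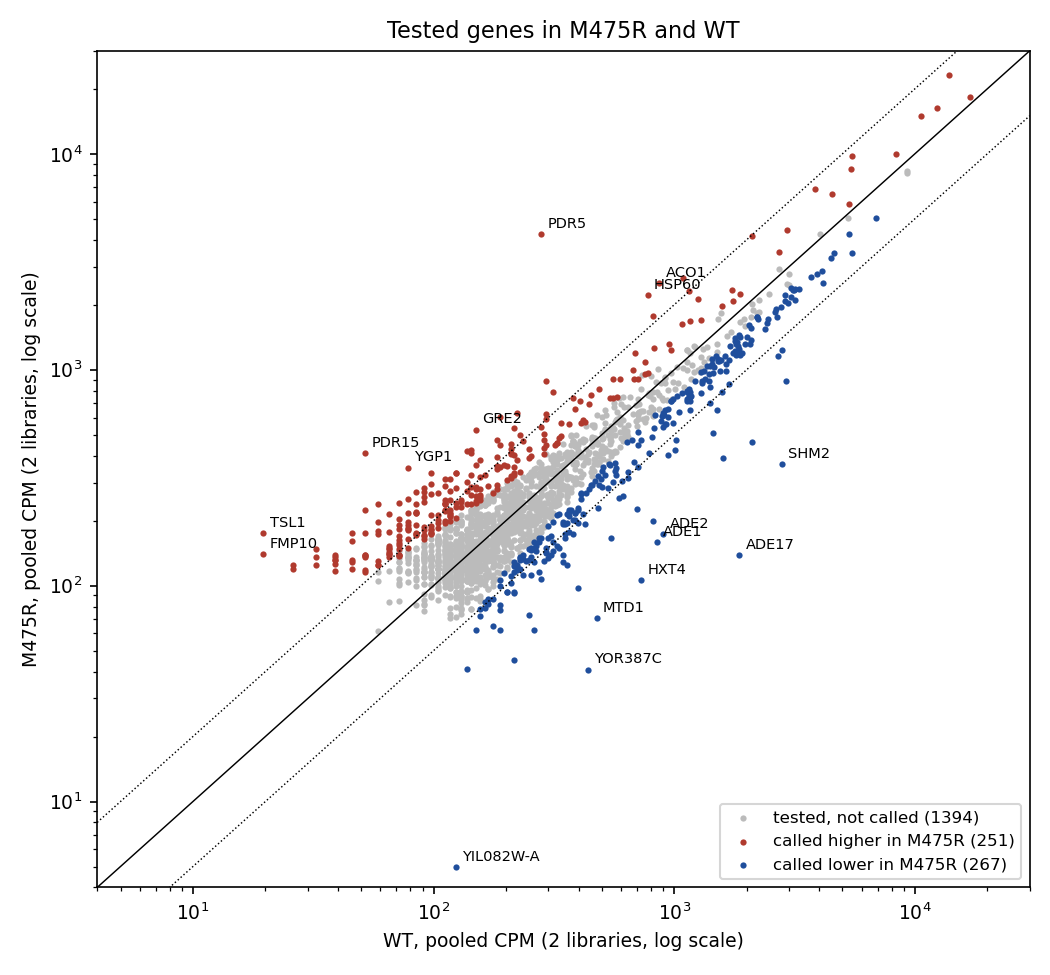
Level of each tested gene in WT (x axis) and M475R (y axis), in CPM pooled over the 2 libraries of a strain on log scales. The solid line marks equal levels and the dotted lines a 2-fold difference, 251 genes are coloured as higher and 267 as lower, and PDR5 stands far above the line while ADE17 and SHM2 stand far below it.

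ASK10 (YGR097W) had counts of 5 and 7 in WT and of 567 and 4 in M475R, or 49.2, 135, 136 and 56 CPM in that order. The groups overlapped, since WT replicate 2 was close to the deep M475R library and the other libraries were lower. The pooled ratio of M475R to WT was 1.72 (95% interval 0.979 to 3.35) and did not pass (edgeR adjusted p = 0.122). Its log2 fold change was 0.83 with all libraries and 1.46 without WT replicate 2 (edgeR adjusted p = 0.0538), and over the alternatives that scored it the adjusted p ran from 0.0538 to 0.643. Without WT replicate 1 or M475R replicate 1 it was below the filter. RGC1, the paralog of ASK10, had 5 and 6 counts in WT and 484 and 10 in M475R, a ratio of 1.63 (0.901 to 3.28, edgeR adjusted p = 0.168). FPS1, the channel that both proteins regulate, stood at 1.01 times WT (0.638 to 1.68, edgeR adjusted p = 0.92). These depths left room for a change of FPS1 within its interval.

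The largest rise of a tested gene was in the pleiotropic drug resistance (PDR) regulon, the targets of the zinc cluster factors Pdr1 and Pdr3, which include plasma membrane pumps that export drugs and lipids. PDR5, the main ABC efflux pump, was at 256 and 328 CPM in WT and at 4245 and 4230 CPM in M475R, from 26, 17, 17685 and 302 counts. The groups were far apart and the M475R libraries nearly equal, for a 15.1-fold higher level (95% interval 11.2 to 20.9, log2 fold change 3.96 ± 0.14 SE, edgeR adjusted p = 2.05e-28). Per length, PDR5 went from 56.2 and 73 FPKM in WT to 943 and 940 FPKM in M475R. Its paralog PDR15 rose 7.87-fold (3.98 to 18.2, edgeR adjusted p = 5.89e-10), from 59.1 and 38.6 CPM to 411 and 378 CPM.

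The other members of the PDR list followed to differing degrees. SNQ2, another ABC pump, rose 2.95-fold (1.94 to 4.72), with 158 and 116 CPM in WT against 425 and 280 CPM in M475R. The genes of both regulators rose as well, PDR1 2.96-fold (1.55 to 6.5) and PDR3 3.54-fold (1.71 to 8.83), each on fewer than 10 pooled WT counts. PDR16, a phosphatidylinositol transfer protein, rose 1.77-fold (1.24 to 2.62), and GRE2, a methylglyoxal reductase gene, 3.51-fold (2.33 to 5.55). The polyamine exporter genes TPO1 (ratio 0.97) and TPO4 (0.69) and the sphingolipid gene IPT1 (1.04) did not pass. YOR1 (2.31, 1.28 to 4.65), PDR10 (1.01, 0.453 to 2.79) and RSB1 (6.01, 1.06 to 239, on 1 WT count) were below the filter.

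In all, 10 of 21 PDR members were tested, 7 rose and 0 fell, beside 13.1% higher over all genes. PDR1, PDR3 and PDR15, among the 7, had fewer than 10 pooled WT counts, where 34 of 37 tested genes were called higher, so that share is not their background. All 21 members together took 0.173% and 0.202% of the counts in WT and 0.743% and 0.717% in M475R, a summed ratio of 4.03 (3.58 to 4.55). Among the roles, the pumps had a summed ratio of 5.58, the regulators 2.41 and the lipid and membrane proteins 1.61. Of 4 tested members of the list of drug transporters outside the regulon, 0 rose and 1 fell, the weak acid pump gene PDR12 at 0.628 times WT (0.498 to 0.802). Without M475R replicate 1, as without WT replicate 1, 4 PDR members were called, and PDR5 and PDR15 kept their calls in each fit with a library left out.

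Large falls were seen in purine nucleotide synthesis and in the one-carbon metabolism that feeds it. In yeast these genes are switched on together by Bas1 and Pho2 when adenine is short, and the pathway runs from PRPP through AICAR to IMP, which branches to AMP and GMP. ADE17, which encodes an enzyme of the last steps to IMP, was at 1851 and 1890 CPM in WT and at 138 and 154 CPM in M475R. The libraries of each strain lay close together, and the level was 0.0739 times WT (95% interval 0.0641 to 0.0855, log2 fold change -3.71 ± 0.13 SE, edgeR adjusted p = 1.23e-29). Its isozyme gene ADE16 stood at 276 and 521 CPM in WT and 373 and 546 CPM in M475R, overlapping, with a ratio of 1.05 (0.801 to 1.4, edgeR adjusted p = 0.732). Per length, ADE17 lay above ADE16 in both WT libraries and below it in both M475R libraries (FPKM of 1057, 1095, 79.5 and 89 for ADE17 and 158, 302, 216 and 316 for ADE16, in WT replicates 1 and 2 and then M475R replicates 1 and 2).

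Earlier steps of the pathway fell with ADE17. ADE4, which commits PRPP to the pathway, was at 837 and 771 CPM in WT and 201 and 98 CPM in M475R (ratio 0.244, 0.202 to 0.297), with a log2 fold change of -1.99 and, without M475R replicate 1, of -3.02. ADE57, a bifunctional enzyme of early steps, stood at 0.22 (0.196 to 0.248), ADE8 at 0.464 (0.321 to 0.692) and ADE6 at 0.351 (0.305 to 0.405). ADE8, with 28 and 3 counts in WT, was the called pathway member whose groups overlapped. ADE2, whose loss turns yeast colonies red, was at 0.193 (0.16 to 0.233), ADE1 at 0.188 (0.155 to 0.228) and ADE13 at 0.246 (0.215 to 0.283). ADE12, on the branch to AMP, was at 0.304 (0.242 to 0.386). Of 10 pathway enzymes 9 fell and ADE16 did not pass. Together the 10 took 1.1% and 0.989% of the counts in WT and 0.267% and 0.289% in M475R, a summed ratio of 0.25 (0.237 to 0.263).

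The branch to GMP and the salvage genes fell less. IMD3 and IMD4, paralogs for IMP dehydrogenase that can share reads, stood at 0.488 and 0.629, and GUA1, GMP synthase, at 0.559 (0.48 to 0.654). HPT1, which salvages hypoxanthine and guanine, was at 0.326 (0.267 to 0.402), the purine permease gene FCY2 at 0.425 (0.344 to 0.53) and the adenine deaminase gene AAH1 at 0.509 (0.376 to 0.704). The summed ratio of this role was 0.52 (0.479 to 0.565). The genes of PRPP synthesis and of the regulators had a summed ratio of 0.97 (0.833 to 1.14), with 3 of 7 tested and 0 called, and BAS1 (1.38, 0.625 to 3.81) and PHO2 (1.02, 0.59 to 1.94) were below the filter.

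One-carbon isozymes took different levels. SHM2, the cytosolic serine hydroxymethyltransferase gene, was at 2737 and 2893 CPM in WT and 366 and 322 CPM in M475R. It was 0.131 times WT (0.118 to 0.146, edgeR adjusted p = 6.98e-28), while SHM1, the mitochondrial form, stood at 0.902 (0.678 to 1.23) and did not pass. MTD1, a cytosolic methylenetetrahydrofolate dehydrogenase gene, had 51 and 22 counts in WT and 299 and 1 in M475R and fell to 0.149 (0.115 to 0.195). Its log2 fold change was -2.70 with all libraries and -4.92 without M475R replicate 1. The trifunctional C1-tetrahydrofolate synthase genes ADE3 (0.761, edgeR adjusted p = 0.068) and MIS1 (0.752, edgeR adjusted p = 0.228) did not pass. The glycine cleavage genes GCV1 (0.295), GCV2 (0.346) and GCV3 (0.47) all fell. Over the whole purine and one-carbon list 20 of 29 tested members fell and 0 rose, beside 14% lower over all genes, and the count was 15 to 20 in the fits with a library left out.

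**Figure D2:**
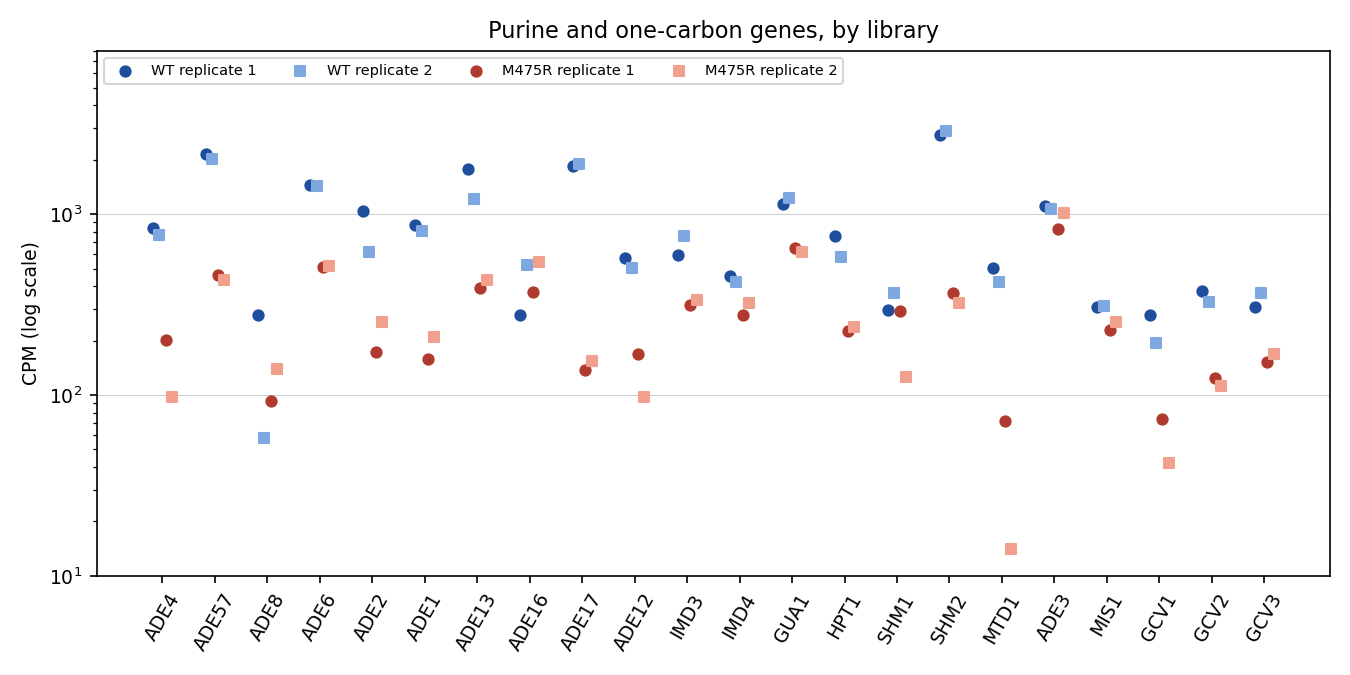
CPM (log scale) of purine and one-carbon genes in each library, from the first step of the pathway at the left through the branches to AMP and GMP to one-carbon genes at the right. The M475R libraries lie below both WT libraries for most genes, with wide gaps at ADE17 and SHM2 and none at ADE16.

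Genes of the mitochondrial ribosome, which translates the few proteins that mitochondrial DNA encodes, rose together. All 74 listed members together took 0.605% and 0.669% of the counts in WT and 1.32% and 1.33% in M475R, a summed ratio of 2.09 (1.96 to 2.23). The large subunit stood at 2.15 (1.97 to 2.35) and the small subunit at 2.03 (1.85 to 2.23). Among members with at least 20 counts over the 4 libraries and at least 1 in WT, 42 of 42 of the large subunit and 31 of 32 of the small subunit had a pooled ratio above 1, beside 2994 of 5304 genes overall. Of the 57 tested, 41 rose and 0 fell, beside 13.1% higher over all tested genes. Members that are low in WT could pass the filter through M475R, however.

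Single mitochondrial ribosome genes were read only a few times in WT. EHD3, counted with the small subunit, was at 59.1 and 57.9 CPM in WT and 239 and 196 CPM in M475R, a ratio of 4.06 (2.13 to 8.89). NAM9 stood at 3 (1.81 to 5.38), MRP1 at 3.09 (1.83 to 5.67) and MRPL3 at 2.97 (1.76 to 5.45), all with edgeR adjusted p below 0.05, and MRPL1 had the lowest ratio of the large subunit at 1.32 (0.858 to 2.15, not passed). The number of members called dropped to 10 without M475R replicate 1 and to 12 without WT replicate 1, while the summed shares of the shallow M475R replicate 2 were as high as those of replicate 1.

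The enzymes that charge mitochondrial tRNAs were higher as well, and their cytosolic counterparts were not. The 14 mitochondrial aminoacyl-tRNA synthetase genes had a summed ratio of 2.51 (2.07 to 3.07). MSD1 (3.38), NAM2 (2.56) and MSR1 (2.72) rose out of 4 tested, beside 13.1% higher over all tested genes. The calls of MSD1, NAM2 and MSR1 were lost without M475R replicate 1. The 20 cytosolic synthetase genes had a summed ratio of 0.868 (0.83 to 0.908), with 0 higher and 2 lower, VAS1 at 0.755 and CDC60 at 0.727. The intervals of the 2 summed ratios do not meet. Chosen after their values were seen, further genes of mitochondrial gene expression were higher: the translation factor MEF1 (2.57), the RNA helicase MSS116 (2.12) and MSS51, a translational activator of COX1 (2.83).

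Mitochondrial protein folding and import genes were higher too. HSP60, the chaperonin of the mitochondrial matrix, was at 788 and 752 CPM in WT and 2214 and 2115 CPM in M475R, 2.85-fold (2.38 to 3.45, log2 fold change 1.55 ± 0.13 SE, edgeR adjusted p = 2.15e-14). SSC1, the matrix Hsp70 that pulls proteins in, rose from 1113 and 1022 CPM to 2660 and 2353 CPM (2.45-fold, 2.1 to 2.88). MIA40, the oxidase that traps proteins in the intermembrane space, rose 2.85-fold (2.03 to 4.12), MAS1, a subunit of the presequence peptidase, 3.37-fold (1.88 to 6.77), and the prohibitin gene PHB2 3.09-fold (2.01 to 5). The import motor gene TIM44 was at 1.48 (1.04 to 2.19) and just missed the threshold (edgeR adjusted p = 0.0521). The count that follows is read beside 13.1% higher over all tested genes. Of 32 tested members 17 rose and 0 fell, with summed ratios of 2.22 for folding, 1.62 for import and 1.66 for proteases, and 6 were called without M475R replicate 1 or without WT replicate 1.

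In the tricarboxylic acid cycle the rise was in the steps from citrate to 2-oxoglutarate. ACO1, aconitase, was at 896 and 810 CPM in WT and 2508 and 2661 CPM in M475R (2.9-fold, 2.44 to 3.46, edgeR adjusted p = 1.36e-15). IDH1 and IDH2, the subunits of NAD-dependent isocitrate dehydrogenase, rose 3.19-fold (2.21 to 4.77) and 3.03-fold (2.26 to 4.16). CIT1 (0.982, 0.734 to 1.34), KGD1 (1.01, 0.746 to 1.4), KGD2 (0.85), LSC1 (1.18), FUM1 (0.886) and MDH1 (1.3) did not pass. CIT2, the peroxisomal citrate synthase gene, rose 2.37-fold (1.64 to 3.55), DLD3 1.48-fold (1.22 to 1.82) and RTG2 1.76-fold (1.09 to 3.04). ACO1, IDH1, IDH2, CIT1, CIT2 and DLD3 are known targets of the retrograde pathway, which signals mitochondrial state to the nucleus through Rtg2, and CIT1 is the one of these that did not pass. Of 15 tested genes of matrix metabolism 6 rose and 0 fell, beside 13.1% higher over all tested genes. With an assumed biological variation of 20%, 3 rose. The calls of IDH2, CIT2, DLD3 and RTG2 were lost without M475R replicate 1, while ACO1 and IDH1 kept theirs. The calls of DLD3 and RTG2 were also lost without WT replicate 1.

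Nuclear genes of the respiratory chain went the other way. The 9 cytochrome oxidase genes took 0.123% and 0.116% of the counts in WT and 0.0552% and 0.0449% in M475R (summed ratio 0.453, 0.39 to 0.529), and 4 of 4 tested fell, among them COX5A at 0.421 and COX6 at 0.446. The 17 ATP synthase genes had a summed ratio of 0.496 (0.46 to 0.535) with 8 of 9 tested lower. ATP1 stood at 1014 and 1022 CPM in WT and 469 and 616 CPM in M475R (0.464, 0.394 to 0.55), and ATP2 at 0.496 (0.436 to 0.568). The bc1 complex and cytochrome c genes had a summed ratio of 0.634 (0.577 to 0.7) with 7 of 8 lower, QCR7 at 0.452 and the Rieske protein gene RIP1 at 0.575, while CYC1 stood at 1.11 (0.869 to 1.45) and did not pass. Succinate dehydrogenase genes had a summed ratio of 1.06 (0.855 to 1.33) with SDH1 lower of 3 tested. The role of NADH dehydrogenases had a summed ratio of 1.26 (1.05 to 1.52) with 0 of 2 called. That role also holds GUT2, which is not an NADH dehydrogenase gene and had its highest ratio (2.62).

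Over the whole respiratory list the median log2 fold change was -0.91, beside 0.02 over all tested genes. Of 26 tested members 20 fell and 0 rose, beside 14% lower over all tested genes. Without M475R replicate 1 the count was 5 and without WT replicate 1 it was 6. Some chain assembly and carrier genes, named after their values were seen, took either direction. ATP11, a chaperone of ATP synthase assembly, rose 3.23-fold (1.84 to 6.28), and the lactate dehydrogenase gene DLD1 rose 2.52-fold (1.89 to 3.42). The phosphate carrier gene MIR1 fell to 0.519, the ADP/ATP carrier gene PET9 to 0.611 and the malic enzyme gene MAE1 to 0.429 (0.361 to 0.512).

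**Figure D3:**
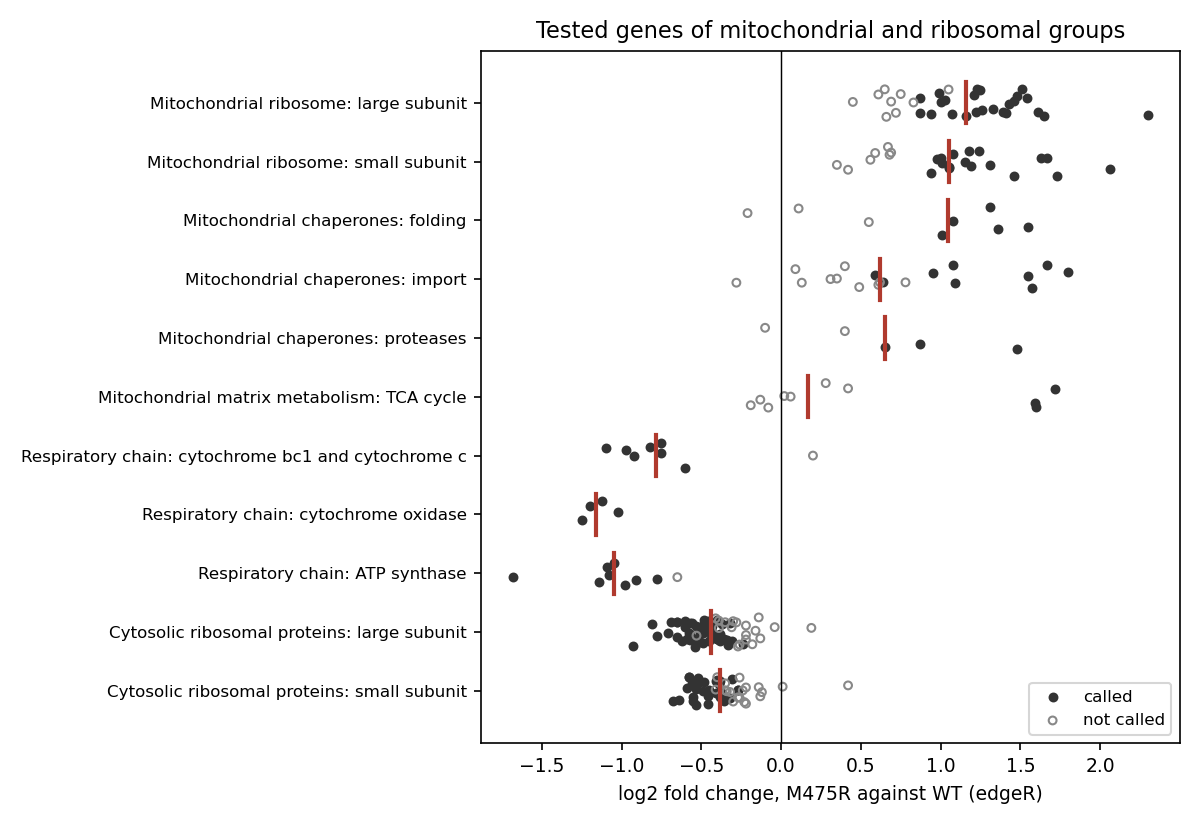
The log2 fold change of M475R against WT for each tested gene (points, filled where called) of mitochondrial and cytosolic ribosomal groups, with the red bar at the median of each group. Mitochondrial ribosome genes lie right of 0 with medians of 1.16 and 1.05, respiratory groups lie left of 0 with medians from -0.79 to -1.16, and cytosolic ribosomal protein genes form narrow clouds near -0.4.

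Cytosolic ribosomal protein genes, the most abundant class of messages in growing yeast, were lower in nearly all members, mostly by a small amount. The 128 genes took 20% and 19.2% of all counts in WT and 14.4% and 14.4% in M475R (summed ratio 0.724, 0.716 to 0.732). Of 126 tested, 86 fell and 0 rose, beside 14% lower over all genes. That share is not matched for depth. Of the 130 tested genes with at least 200 pooled WT counts, some of them in this list, 85 were called lower. Pooled ratios in the large subunit ran from 0.507 for RPL9A to 1.11 for RPL22B, with 68 of 69 below 1, and in the small subunit from 0.606 for RPS10A to 1.3 for RPS9A, with 52 of 53 below 1. Many of these genes are near-identical pairs whose reads the counting could split. In all, 34 members were called without M475R replicate 1, 33 without WT replicate 1, and 0 with an assumed biological variation of 20%.

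Factors that assemble ribosomes also fell. The 61 listed genes had a summed ratio of 0.681 (0.657 to 0.706), and 59 of 61 had a pooled ratio below 1. Of 57 tested, 20 were called lower and 0 higher, beside 14% lower over all tested genes. ENP2, needed for the small subunit, was at 0.452 (0.336 to 0.622), the nucleolar protein gene NSR1 at 0.578 (0.49 to 0.685) and the fibrillarin gene NOP1 at 0.603 (0.509 to 0.719). Only 3 members were called without M475R replicate 1. The polymerase I role, which also holds HMO1, not a subunit gene, had a summed ratio of 0.755 (0.667 to 0.857), with 1 of 5 tested lower. Cytosolic translation factors had a summed ratio of 0.899 (0.873 to 0.926), with 1 of 30 tested lower, the initiation factor gene TIF4631 (0.683).

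Glycolytic genes rose by a small amount on a high base. The list took 9% and 9.29% of the counts in WT and 12.8% and 13% in M475R (summed ratio 1.4, 1.37 to 1.42). Of 19 tested members 16 rose and 0 fell, beside 13.1% higher over all tested genes. Of the 130 tested genes with at least 200 pooled WT counts, some of them in this list, 17 were called higher. The number higher was 9 without M475R replicate 1, 11 without WT replicate 1 and 1 with an assumed biological variation of 20%. Lower glycolysis rose most among the roles, with 7 of 7 tested higher and a summed ratio of 1.54 (1.5 to 1.57). TDH3, the main glyceraldehyde-3-phosphate dehydrogenase gene, stood at 14129 and 13287 CPM in WT and 23023 and 24091 CPM in M475R (1.66-fold, 1.59 to 1.74), and reads from its near-identical copy TDH2 (1.79-fold) may be split between them. PGK1, phosphoglycerate kinase, rose 1.79-fold (1.67 to 1.91) and GPM1 1.58-fold (1.47 to 1.69), whereas the pyruvate kinase gene CDC19 rose 1.2-fold (1.14 to 1.27). TDH3 had the highest FPKM of all genes in both M475R libraries (24313 and 25439), and the wall protein gene CCW12 had it in both WT libraries (15500 and 14163). GLK1, glucokinase, rose 3.39-fold (2.05 to 6.08) and HXK2, the main hexokinase gene on glucose, 1.31-fold (1.14 to 1.51).

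Hexose transporter genes divided. HXT4, a high-affinity glucose transporter gene, was at 738 and 714 CPM in WT and 106 and 84 CPM in M475R, 0.145 times WT (0.118 to 0.18, edgeR adjusted p = 1.25e-17). The low-affinity transporter genes HXT1 (1.66-fold, 1.26 to 2.23) and HXT3 (1.27-fold, 1.08 to 1.51) rose. The near-identical HXT6 and HXT7 were given equal counts in every library (4, 2, 92 and 1) and were below the filter. Summed over 10 transporters the ratio was 0.914 (0.82 to 1.02).

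Reserve and stress carbohydrate genes were higher. Of 7 trehalose genes 5 were tested and all 5 rose, beside 13.1% higher over all tested genes. They were the synthase subunit genes TPS1 (2.57-fold, 1.58 to 4.51), TPS2 (2.33-fold), TPS3 (2.25-fold) and TSL1 (8.96-fold, 3.05 to 43.5, on 3 WT counts), and the trehalase gene NTH1 (1.86-fold, 1.1 to 3.42). TSL1 had fewer than 10 pooled WT counts, where 34 of 37 tested genes were called higher, so 13.1% is not its background. The summed ratio of the 7 was 2.5 (1.99 to 3.18), and without M475R replicate 1, 0 members of the reserve list were called. Glycogen genes had 0 of 2 tested called. Among glycerol enzymes, GPP2 rose 3.19-fold (1.86 to 6.01), GPD1 2.17-fold (1.53 to 3.18) and GPP1 1.51-fold (1.3 to 1.78). The call of GPD1 was lost without WT replicate 1 and that of GPP2 without M475R replicate 1. GPD1 makes glycerol-3-phosphate from a glycolytic intermediate, and the Gpp enzymes release glycerol from it. The role of channel, uptake and regulators, which holds FPS1 and RGC1, had 0 of 4 tested called. GRE3, an aldose reductase gene whose product also reduces xylose, rose 4.31-fold (2.18 to 10), from 49.2 and 57.9 CPM to 224 and 252 CPM.

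Targets of Zap1, the activator that responds to low zinc, were lower. The 17 listed genes took 1.32% and 1.46% of the counts in WT and 0.793% and 0.889% in M475R (summed ratio 0.577, 0.552 to 0.603). Of 9 tested, 7 fell and 0 rose, beside 14% lower over all tested genes. The number lower was 3 without M475R replicate 1 and 5 in each other fit with a library left out. ADH4, an alcohol dehydrogenase gene, was at 2530 and 3028 CPM in WT and 1149 and 1485 CPM in M475R (0.428, 0.387 to 0.474). ZPS1, a cell wall protein gene, stood at 0.441 (0.4 to 0.488), and the zinc transporter genes ZRT1 at 0.608 (0.562 to 0.66), ZRT2 at 0.546 and ZRT3 at 0.698. ZAP1, which its own product activates, was at 0.599 (0.457 to 0.799). The vacuolar zinc importer gene ZRC1 (0.774) and the peroxiredoxin gene TSA1 (0.861) did not pass. VEL1, a gene of unknown function induced by zinc depletion, fell to 0.21 (0.144 to 0.313). YOR387C, a gene related to VEL1, fell to 0.0935 (0.0701 to 0.126), from 423 and 463 CPM to 40.6 and 56 CPM. VEL1 lost its call without WT replicate 1 (edgeR adjusted p = 0.619), without M475R replicate 1 (0.208) or without M475R replicate 2 (0.0993), and YOR387C without WT replicate 1 (0.0853).

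Amino acid and nitrogen genes were lower in part. GDH1, the NADPH-dependent glutamate dehydrogenase that takes up ammonium, was at 3033 and 2700 CPM in WT and 888 and 938 CPM in M475R (0.304, 0.276 to 0.336, edgeR adjusted p = 1.58e-18). GLN1, glutamine synthetase, fell to 0.74 (0.645 to 0.852), and GDH2, which runs in the direction of ammonium release, rose 1.76-fold (1.08 to 3.1). GDH2 lost its call in each of the 4 fits with a library left out. The Gcn4 list had a summed ratio of 0.74 (0.714 to 0.767). In it 17 of 45 tested members fell and 1 rose, beside 14% lower and 13.1% higher over all tested genes. The number lower was 9 without WT replicate 1, 11 without M475R replicate 1 and 4 with an assumed biological variation of 20%. The branched-chain genes LEU1 (0.431, 0.377 to 0.495), BAT1 (0.421, 0.357 to 0.499) and ILV3 (0.604), the histidine genes HIS5 (0.402) and HIS1 (0.435) and the arginine gene ARG4 (0.505) were among those that fell. OAC1, a mitochondrial oxaloacetate and isopropylmalate carrier, fell to 0.245 (0.187 to 0.326), a call lost without WT replicate 1 (edgeR adjusted p = 0.125). THI7, the thiamine transporter gene, fell to 0.239 (0.171 to 0.342) and lost its call without WT replicate 1 (edgeR adjusted p = 0.508). Other thiamine genes were below the filter.

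Protein quality control outside mitochondria rose in a minority of members. Of 23 tested cytosolic chaperone genes 6 rose and 0 fell, beside 13.1% higher over all tested genes. With an assumed biological variation of 20%, 1 rose, and fewer were called without M475R replicate 1 or without WT replicate 1. HSP82, an Hsp90, was at 1093 and 1273 CPM in WT and 2325 and 1877 CPM in M475R (2.01-fold, 1.73 to 2.34). Its cochaperone gene STI1 rose 1.95-fold (1.51 to 2.58) and the disaggregase gene HSP104 1.93-fold (1.43 to 2.67). The chaperonin TRiC and prefoldin genes had 0 of 8 tested called and a summed ratio of 1.14 (1.04 to 1.25). The counts that follow are read beside the same 13.1% higher over all tested genes. Proteasome genes had 7 of 33 tested higher and a summed ratio of 1.28 (1.22 to 1.35), with RPN8 at 1.99 and PUP2 at 1.87, and 3 were called without M475R replicate 1 and 2 without WT replicate 1. Vacuolar protease genes had 4 of 5 tested higher, PEP4, the protease that activates the others, at 1.98 (1.43 to 2.84) and PRB1 at 1.54 (1.18 to 2.04). Over the whole vacuole list 5 members were called higher, and with a library left out 0 (WT replicate 1), 1 (M475R replicate 1) or 2 (either replicate 2). In the oxidative stress list 5 of 14 rose, with the peroxiredoxin gene AHP1 at 2.19 (1.83 to 2.63) and the regulator gene YAP1 at 1.67 (1.12 to 2.62). The peroxiredoxin gene TSA1, described with the Zap1 targets, is outside this list and did not pass.

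Calls among membrane and wall genes took mixed directions, and are read beside 13.1% higher and 14% lower over all tested genes. Of 46 tested lipid genes 4 rose and 4 fell: the sterol genes ERG4 (2.44), ERG10 (1.71) and ERG12 (2) were among those higher, and INO1 (0.502), which makes inositol phosphate, FAS2 (0.739) and the desaturase gene OLE1 (0.724) among those lower. The choline transporter gene HNM1, named after its value was seen, fell to 0.501 (0.412 to 0.614). In the secretory list 3 of 30 rose and 2 fell, the latter KAR2, the Hsp70 of the endoplasmic reticulum (0.6, 0.505 to 0.718), and HAC1, the regulator of the unfolded protein response (0.607). In the wall list 4 of 25 rose, led by YGP1, a secreted glycoprotein gene (4.51-fold, 2.57 to 8.74), and CWP2 fell (0.706). The log2 fold change of YGP1 was 2.21 with all libraries and 3.24 without WT replicate 1. In the iron and copper list 2 of 6 rose and 2 fell, the latter FRE1 (0.486) and FET3 (0.668), which take up iron. With a library left out, 0 members of the iron and copper list and 0 of the secretory list were called higher in each of the 4 fits, and 0 to 2 of the lipid list.

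For genes with many counts, counting error was small enough to bound the ratio between these libraries. The intervals cover no variation between cultures, so they do not bound a difference between the strains. Of the 1912 tested genes, 263 had a 95% interval within 1.5-fold either way, and 30 of these were called. The fatty acid synthesis gene ACC1 was at 0.9 (0.813 to 1), the elongation factor gene YEF3 at 0.879 (0.833 to 0.927) and the proton pump gene PMA1 at 0.903 (0.856 to 0.953). None of these passed, although the intervals of YEF3 and PMA1 lay below 1. ACT1, actin, rose 1.2-fold (1.06 to 1.36). Histone genes had 0 of 9 tested called and a summed ratio of 0.954 (0.888 to 1.03).

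Most calls were lost in at least 1 of the fits with a library left out. Of the 251 genes called higher, 39 were called in all 4 fits with a library left out and 63 in 0 of them, and of the 267 called lower, 57 and 40. Those called in all 4 include TDH2, TDH3, PGK1, GPM1, HSP82, HSP104, AHP1, GPP1, DLD1, ATP11, MEF1 and MSS116 among the higher genes. Among the lower ones they include ADE6, ADE12, GUA1, IMD3, HPT1, GCV2, LEU1, BAT1, ARG4, ADH4, ZPS1, ZRT1, ATP2, MIR1, MAE1, NSR1, RPL9A and INO1. Called in 0 of the 4 were ACT1, CDC60, FRE1, GDH2, HAC1, RTG2, YAP1 and ZRT3. Called in 1 of the 4 were ADE8, CWP2, ERG12, FET3, GLN1, HXK2, HXT3, NTH1, OLE1, PDR3, PRB1, RIP1, SDH1, TIF4631 and VAS1. Each such fit leaves 1 library in a strain, which is assumed to vary like the other strain.

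**Figure D4:**
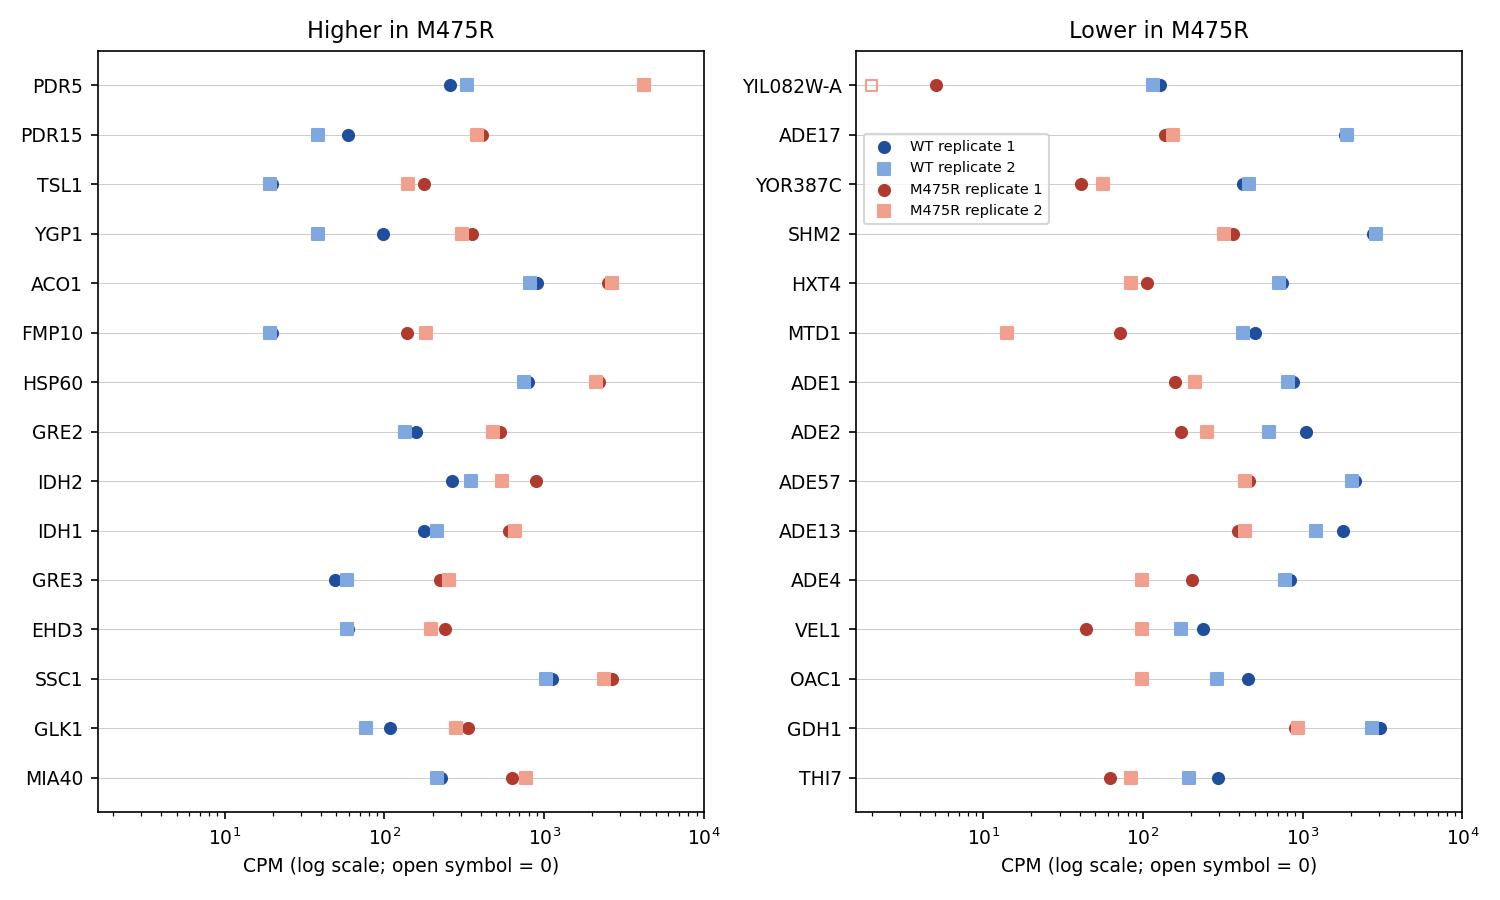
CPM (log scale) in each library for the 15 genes higher and 15 lower in M475R with the largest fold by the bound of the interval nearest to 1, ordered from the top, with an open symbol for a level of 0. The WT libraries lie apart from the M475R libraries in each gene, by the choice of these genes, and PDR5 and ADE17 show close pairs at large distance.

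Among the 15 rises so chosen, TSL1 and FMP10 (7.15-fold, 2.43 to 34.7), a mitochondrial protein gene of unknown function, rested on 3 pooled WT counts each. FMP10 lost its call without WT replicate 1 (edgeR adjusted p = 0.0616) or without M475R replicate 1 (0.0603), and EHD3 without M475R replicate 1 (0.156). The lowest ratio of all tested genes was that of YIL082W-A, at 0.04 (0.0205 to 0.0787), which belongs to a copy of the retrotransposon Ty3. It had 13 and 6 counts in WT and 21 and 0 in M475R, while YGR109W-B, of the other listed Ty3 copy, had 0 and 0 in WT but stood at 114 and 154 CPM in M475R. Summed over both near-identical copies, the level was 128 and 116 CPM in WT and 119 and 154 CPM in M475R, a ratio of 0.966 (0.612 to 1.62). The call of YIL082W-A was lost without WT replicate 2 (edgeR adjusted p = 0.817) or without M475R replicate 2 (0.848).

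**Figure D5:**
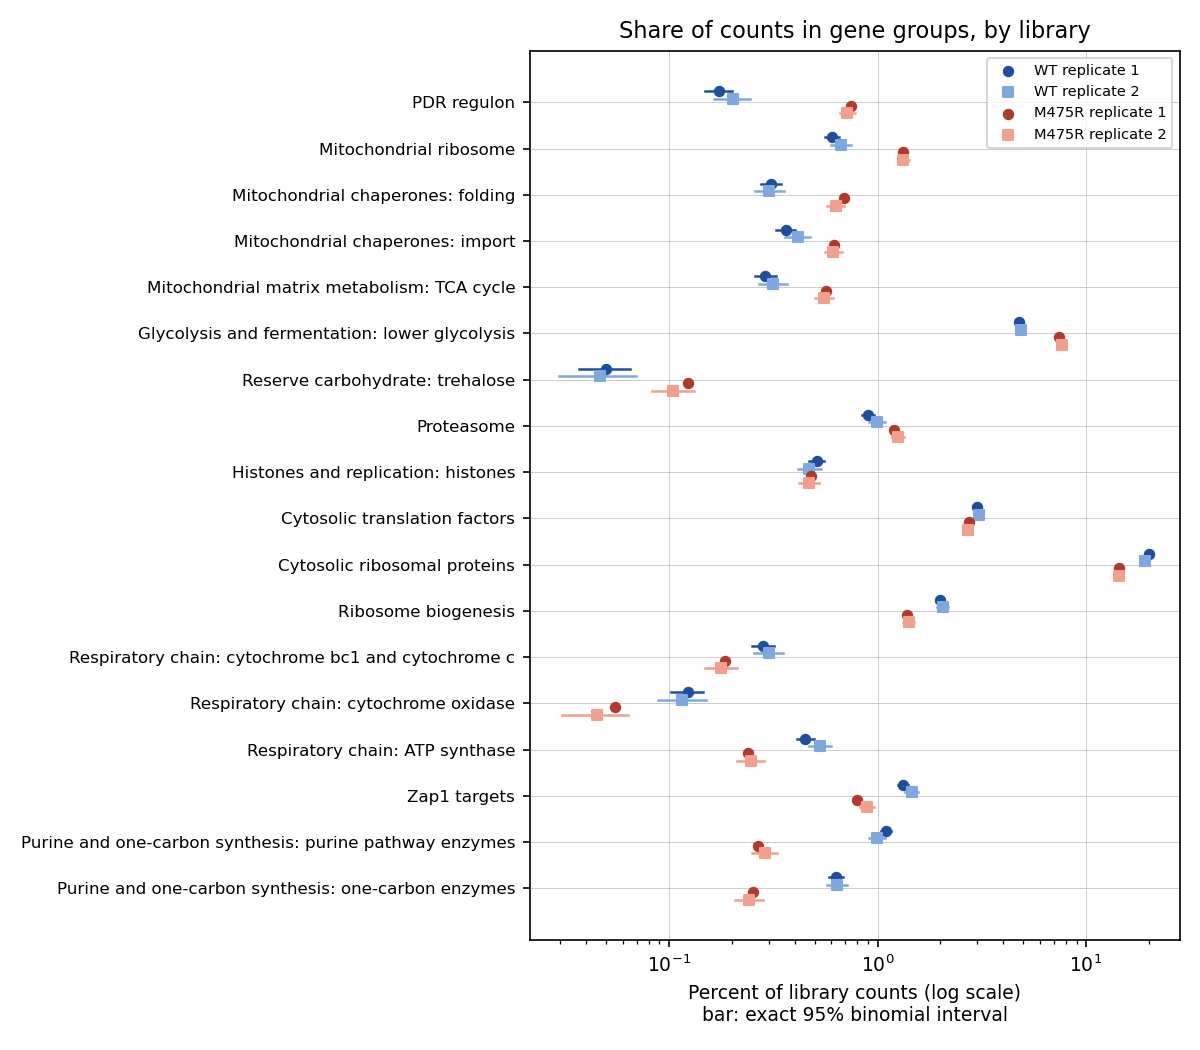
Percent of each library's counts (log scale) that fell in a gene group, with exact 95% binomial intervals, for all listed members whether tested or not. Replicates of a strain overlap or lie close together, M475R lies right of WT from the PDR regulon down to the proteasome, and left of it from cytosolic ribosomal proteins down, with histones overlapping and translation factors slightly lower between.

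The strain without ASK10, measured in a single library, gives a further reference for these shares, with no replicate. There the PDR members took 0.201% of the counts, the purine pathway enzymes 1.05%, the mitochondrial ribosome 0.679%, cytochrome oxidase 0.115%, Zap1 targets 1.11% and cytosolic ribosomal proteins 18.8%. In these 6 groups the value of that library lay between those of the WT and the M475R libraries or within the range of WT. Other groups did not follow that order: the respiratory genes as a whole took 1.15% there, against 0.989% and 1.08% in WT and 0.637% and 0.657% in M475R.

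Gene length moved with the direction of the calls. With tested genes divided into 4 equal classes of length, the shortest, up to 0.765 kb by the length that the deposited FPKM and counts imply, had 57 higher and 132 lower genes, with a median log2 fold change of -0.15. In the longest class, from 2.15 kb, 60 were higher and 38 lower, with a median of 0.07. Outside the gene lists the shortest class had 21 higher and 26 lower with a median of 0.01, and the longest 36 and 17 with a median of 0.11. Ribosomal protein and many respiratory genes are short, while ATP1, ATP2, GDH1, ADE17 and SHM2, which fell, are longer than that class. The part of length in the calls was not tested. Median log2 fold changes by chromosome ran from -0.13 to 0.19. Markers of both mating types were read. STE2 and BAR1 of the a type had counts of 43, 29, 1532 and 30, and of 17, 7, 612 and 8, in WT replicates 1 and 2 and then M475R replicates 1 and 2. The a-factor genes MFA1 and MFA2 were at 0 in WT, with 1 and 3 counts in M475R replicate 1. Of the alpha type, STE3 had counts of 0, 1, 80 and 2 and SAG1 of 8, 0, 137 and 2.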

How the data were processed

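Per the labels' protocols, isolated mRNA was fragmented and made into cDNA, and adapter-ligated fragments of selected size went through PCR. The submitters' processing notes name BWA and Bowtie. The build, annotation, counting tool and strandedness are not given in the sources used here. Each deposited table of a library pair lists, per the file headers, an expected count per gene (not always whole) and an FPKM that the authors computed, where 0.001 stands for 0. From 4 tables these were joined by identifier (missing gene = 0; 0 values differed between tables), and expected counts were rounded. A further 32 columns of per-sample values were not used. Of 6032 identifiers, 5515 matched a gene table of assembly R64, used only for names, and 517 did not.

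Genes were tested with edgeR 4.0.16 (R 4.3.3; quasi-likelihood, TMM, filterByExpr by strain, 4 libraries, Benjamini-Hochberg under 0.05). The common dispersion was 0.000876, a variation of 3% between libraries that may be technical, with 2 residual degrees of freedom. Standard errors therefore carry little beyond counting error. CPM are counts per 1000000 of the library total after TMM. Ratios are of pooled counts with exact 95% conditional binomial intervals. The test was checked on simulated data. Replicates of a strain were compared by chi-square (minimum expected value 5; WT 2001 genes, p = 0.436; M475R 2876 genes, p = 0.168), while pairs of different strains gave 2.583 to 5.754 per degree of freedom, and each pair was counted as 1 sample.

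Named genes are ASK10, the 15 higher and 15 lower called genes with non-overlapping libraries and the largest fold by the interval bound nearest to 1, up to 4 such members per list, and members bounded within 1.5-fold. Others are given for their role in a list, or are said to be chosen after their values were seen. The comparison, the 37 gene lists and the rules were chosen with earlier results of these data known. Of 1202 list entries, 56 were not analysed here, and genes that copies share may be undercounted. Motifs in promoters were planned but not examined, since no sequence of the files' build was at hand.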

Additional observations from a re-analysis of the deposited data

How the results depend on the processing

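No gene called in the comparison was called in the opposite direction under any of the 15 alternatives, but the number of calls did change. With a biological variation fixed at 20%, 56 genes were higher and 35 lower (56 and 34 at least 2-fold), and at 10% 166 and 154. DESeq2 called 34 higher and 111 lower (21 higher at least 2-fold), with 4789 adjusted p-values not available. With M475R replicate 1 thinned to 71241 counts, 119 were higher and 129 lower (87 higher at least 2-fold). Without a filter 86, and with at least 20 counts in all 89, were lower at least 2-fold. Leaving out each library in turn gave 70 to 181 higher and 94 to 221 lower, and 55 to 130 higher and 35 to 59 lower at least 2-fold. Of 30 named genes all kept their call where scored, except in the fits with all 5 libraries (YIL082W-A, edgeR adjusted p = 0.28) and with a library left out. The cause of these shifts was not tested. Other scalings (RLE 230 and 274, total counts 249 and 258), all 5 libraries (246 and 294) and the exact binomial test of pooled counts (220 and 333) stayed within 1.5 times. The share of calls that were higher was 48.5% in the main test, 45.6% with RLE and 49.1% with total counts.

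With a replicate block 227 were higher and 258 lower (135 and 60 at least 2-fold). Same-numbered libraries hardly deviated together (correlation 0.071 over 426 genes with at least 20 counts in each library), so the numbers were not taken to pair the libraries, and the block is given as a hint from the data alone. Of 74 counts of list members, the replicate block moved 7 by over 1.5 times, total counts scaling 2 and a biological variation of 20% 43. Leaving out a library moved 36 (WT replicate 1), 16 (WT replicate 2), 42 (M475R replicate 1) or 22 (M475R replicate 2). Genes under about 10 pooled WT counts could be called higher but not lower, so falls of low genes were not detectable at this depth.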
